A study of Homo sapiens with 10 samples.

Results

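In a genome-wide CRISPR knockout screen of 22Rv1 prostate cancer cells, 35 of 55849 guides (sgRNAs) were scarce in every later library of the parental line and present in every later library of its NMYC-overexpressing derivative. The 35 guides were chosen from the counts themselves: each had at least 5 CPM (a guide's count scaled by the total of its library) in all 4 NMYC libraries of T6 and T12 and below 2 CPM in all 4 parental libraries of T6 and T12. The libraries of T0, taken after selection, played no part in the choice. The guides target 35 different genes, so 0 genes had 2 guides in the set, and 0 of the 989 non-targeting controls in the table were among them. A working description as guides scarce only in later parental libraries held for some of them and not for others: 18 of the 35 were already below 2 CPM in the parental T0 library. They are therefore described by the rule, as guides low in later parental and present in later NMYC libraries.

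22Rv1 is an established human prostate cancer cell line. The groups used were parental 22Rv1 cells and 22Rv1 cells labelled as overexpressing NMYC, each infected with a lentiviral guide library in the lentiCRISPRv2 vector at a multiplicity of 0.3, selected with puromycin, and then grown as 2 replicate cultures. Each arm gave 1 library at T0 and 2 at T6 and at T12, 10 in all, made by amplicon sequencing of genomic DNA. The sources used here do not say how NMYC was introduced, whether the derivative is a clone, or what unit T6 and T12 are in. All libraries of an arm appear to trace to 1 infection, so no spread between infections enters the p-values given here. The main fit also took the T6 and T12 libraries of the 2 cultures of an arm as separate libraries. For single guides, its p-values rested in effect on a spread shared across guides, not on each guide's own spread between cultures.

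In a pooled knockout screen, each cell carries a guide that directs Cas9 to cut a gene, and the guide integrated in its DNA serves as a tag for that cell and its descendants. The share of a guide in the counts therefore follows the number of cells descended from those it entered. Guides against genes needed for growth become scarce, guides against genes that restrain growth become common, and a guide carried by few cells can also change its share through which cells are passed on. MYCN encodes N-Myc, a transcription factor that binds DNA as a dimer with MAX and is linked to neuroendocrine prostate cancer. The study searched for knockouts harmful to cells with high MYCN; the 35 guides lie on the opposite side, scarce in parental and not in NMYC cells. The table names guides by library identifiers and gene symbols and holds no guide sequence, so none is shown.

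Library totals ran from 8783512 to 18398571 counts. A level of 2 CPM corresponded to 17.6 counts in the shallowest parental library of T6 and to 33.8 in the deepest of T12, and 5 CPM to between 47.7 and 81.6 counts in the later NMYC libraries. The labels describe no molecular identifiers, so reads may not count separate molecules, and the 95% exact (Clopper-Pearson) intervals below cover counting error only.

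The values that chose the guides are given as a description. In the later parental libraries the 35 guides had a median of 6 counts, at most 33, and 13 of them had 0 counts in at least 1 of these libraries, while 0 had 0 counts in all 4. In the later NMYC libraries they had a median of 186.5 counts, from 49 to 1205. The lowest NMYC value exceeded the highest parental value by 2.73-fold for PNPLA1 and by 81.2-fold for LOC100129636, with a median of 6.14-fold. PLEKHA6 (44.6-fold), WDR5 (38.5-fold), COASY (24.4-fold) and CLDN2 (18.7-fold) followed LOC100129636. The highest parental value was only 1 count for LOC100129636 and 3 counts for PLEKHA6 and WDR5, at or below a limit of 3 counts. The sizes and order of these ratios are therefore imprecise. In NMYC cells the chosen guides were less abundant than most others that met the same minimum. Their medians were 11.8 and 10.9 CPM in the T6 libraries and 15.9 and 25.7 CPM in the T12 libraries, against 26.6, 27.1, 27.4 and 30.2 CPM for the 17898 guides at 5 CPM or more in all 4 later NMYC libraries.

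In the edgeR quasi-likelihood fit of all 53040 guides with a mean count of at least 20, 0 of the 35 passed an adjusted p of 0.05 in later NMYC minus later parental, and all 35 were higher at an unadjusted p under 0.05. Over all guides, 0.00754% were called higher and 3.94% were higher unadjusted. DESeq2 called 33 of the 35 higher, against 2.04% of all guides. The log2 fold changes ran from 3.34 (CALY) to 8.19 (LOC100129636). The rule used this contrast, so nothing about the guides is read from these counts. All 35 passed the filter on low counts, which they had to do through their NMYC levels.

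Meeting the low side of the rule was common, and meeting both sides was rare. Of all guides, 3157 (5.65%) were below 2 CPM in all 4 later parental libraries, and the 35 are 1.11% of these; 32.1% of all guides met the NMYC side. With the arms exchanged, 2984 guides (5.34%) were below 2 CPM in all 4 later NMYC libraries, 25.6% met the parental side, and 10 guides met both. In all 8 later libraries 1184 guides were below 2 CPM. Each of the 8 libraries bears on the number: it was 211 without parental T6 replicate 1, 116 without NMYC T12 replicate 2, 76 without parental T12 replicate 2, 65 without NMYC T12 replicate 1, 63 without parental T6 replicate 2, 62 without parental T12 replicate 1, 61 without NMYC T6 replicate 1 and 58 without NMYC T6 replicate 2. Leaving out a library can only add guides. With CPM from TMM-adjusted library sizes, a scaling that corrects for composition, 35 guides met the rule again, but only 22 of them were the same. The guides that then missed a limit target ABHD2, ATP6V1E2, KRT36, LOC100129636, MYO5B, NGLY1, PNPLA1, RAB11FIP4, SLC39A11, TAS2R46, TMEM184C, TRIP12 and ZNF268.

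The T0 libraries, which the rule ignored, divided the guides. At parental T0, 18 of the 35 (51.4%) were below 2 CPM, 6 were from 2 to below 5, and 11 (31.4%) were at 5 or more. Of all guides 38.9% were below 2 CPM in that library, of the 3157 guides low in all later parental libraries 80.8%, and of the 17898 guides present in all later NMYC libraries 17.3%. At NMYC T0, 13 of the 35 (37.1%) were below 2 CPM, 3 were from 2 to below 5, and 19 (54.3%) were at 5 or more. The same 3 sets there had 26.7%, 74.3% and 6.91% below 2 CPM. In both T0 libraries the 35 guides thus lay between the parental-low and the NMYC-present sets from which they were drawn. NMYC T0 exceeded parental T0 for 23 guides and was below it for 12 (65.7% higher, against 56.5% of all guides), and by over 4-fold for 13 (37.1%, against 34.5% of all). Each arm has 1 T0 library, so these are values and were not tested. The parental T0 library is also a weak baseline. Its 38.9% of guides below 2 CPM compares with 13.9% to 37.5% in the later parental libraries. Its Spearman correlation was 0.369 to 0.445 with later parental and 0.369 to 0.433 with later NMYC libraries, so it was hardly closer to its own arm.

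The first group is the 11 guides that were at 5 CPM or more at parental T0 and scarce later. Among them 6 were also at 5 or more at NMYC T0, so that only the later parental libraries were low: ASRGL1, MYO5B, PIGB, PNPLA1, RAB11FIP4 and TAS2R46. That is 17.1% of the 35, against 35.2% of all guides, 2.72% of the parental-low set and 60.8% of the NMYC-present set. The MYO5B guide, against an unconventional myosin that moves recycling endosomes, had 878 counts at parental T0, then 1 and 11 at T6 and 1 and 12 at T12. In NMYC cells it had 87 counts at T0, 235 and 49 at T6, and then 577 and 345 at T12. That is 47.7 CPM (95% interval 44.6 to 51.0) at parental T0 against 0.525 ± 0.571 CPM later (SD, n = 4 libraries from 2 cultures). The RAB11FIP4 guide, against an effector of the recycling GTPase RAB11, had 336 counts at parental T0, then 1 and 0 at T6 and 15 and 0 at T12, and in NMYC cells 479 at T0, 111 and 54 at T6, and then 210 and 484 at T12. Of the 11 guides it was the only one whose later NMYC mean (14.7 CPM) lay below its NMYC T0 value (31.0 CPM, interval 28.3 to 33.9).

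ASRGL1 encodes an asparaginase and isoaspartyl peptidase. Its guide had 329 counts at parental T0, then 1 and 9 at T6 and 0 and 12 at T12. In NMYC cells it kept the narrowest range of the 35 guides, 171 counts at T0, 182 and 135 at T6, and then 212 and 125 at T12, a 2.10-fold spread in CPM over the later libraries. The PNPLA1 guide, against an enzyme of skin lipid synthesis, had 480 counts at parental T0, then 15 and 0 at T6 and 14 and 31 at T12, and in NMYC cells 205 at T0, 176 and 104 at T6, and then 66 and 497 at T12. PIGB adds a mannose to the glycosylphosphatidylinositol membrane anchor. Its guide had 120 counts at parental T0, then 21 and 1 at T6 and 11 and 10 at T12, and in NMYC cells 130, then 193 and 292, then 117 and 315. The guide against TAS2R46, a bitter taste receptor gene, had 163 counts at parental T0, then 24 and 16 at T6 and 17 and 23 at T12, the least low of the group, with a parental T0 level 5.84 times its later mean. TAS2R46 has close relatives in its gene family, so its target is uncertain here.

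For 4 further guides present at parental T0 the T0 libraries of the arms were opposite to the later ones: COASY, NAT2, NEURL2 and SEMA3E were below 2 CPM at NMYC T0. That is 11.4% of the 35, against 7.22% of all guides, 8.36% of the parental-low set and 3.45% of the NMYC-present set. COASY makes coenzyme A. Its guide had 939 counts at parental T0, then 4 and 4 at T6 and 5 and 8 at T12, while in NMYC cells it had 27 counts at T0, 282 and 309 at T6, and then 152 and 228 at T12. The parental T0 level was 51.0 CPM (interval 47.8 to 54.4), 132.5 times the later parental mean of 0.385 ± 0.0916 CPM (SD, n = 4). The NMYC T0 level was 1.75 CPM (1.15 to 2.54), against a later NMYC mean of 19.2 ± 9.32 CPM (n = 4).

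The SEMA3E guide, against a secreted guidance protein of the semaphorin family, had 628 counts at parental T0, then 5 and 1 at T6 and 1 and 13 at T12. In NMYC cells it had 11 counts at T0, 107 and 265 at T6, and then 303 and 546 at T12. NEURL2 encodes a neuralized family protein of ubiquitin ligase complexes, and its guide had the highest parental T0 level of the 35, 60.1 CPM (56.6 to 63.7). It had 1105 counts there, then 11 and 1 at T6 and 4 and 28 at T12, and in NMYC cells 18 at T0, 215 and 77 at T6, and then 87 and 642 at T12. The guide against NAT2, an arylamine N-acetyltransferase of drug metabolism, had 540 counts at parental T0, then 21 and 5 at T6 and 6 and 2 at T12, and in NMYC cells 18 at T0, 554 and 96 at T6, and then 97 and 694 at T12. NAT2 has a close relative in its gene family, so its target is uncertain here. All 4 guides were thus high in the parental and low in the NMYC T0 library and were the other way round in every later library. The remaining guide of the 11, against NGLY1, the enzyme that removes N-glycans from misfolded glycoproteins, had 166 counts at parental T0 and between 3 and 18 later, and in NMYC cells 66 at T0 and between 89 and 454 later.

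In the edgeR fit of later minus T0 in parental cells, 4 of the 35 passed as lower (COASY, SEMA3E, NEURL2 and MYO5B, with log2 fold changes of -7.43, -7.19, -7.00 and -6.84) and 0 as higher, beside 0.5% and 0.00943% of all guides. At an unadjusted p 10 were lower and 0 higher, beside 7.91% and 4.65%. DESeq2 called 10 of the 34 with an adjusted p lower and 0 higher, beside 3.22% and 8.08%. The later parental values were low by choice and T0 is a single library, so these counts are a description. The edgeR calls were also not stable: 0 of the 35 were called without parental T6 replicate 1, parental T6 replicate 2, parental T12 replicate 1, parental T12 replicate 2, NMYC T6 replicate 1 or NMYC T6 replicate 2, each left out alone, and 0 under the replicate block. In NMYC cells, whose later values also entered the rule, edgeR called 0 of the 35 in later minus T0, beside 0.347% of all guides lower and 0% higher, with 0 at an unadjusted p, beside 6.46% and 0.745%. DESeq2 called 0, beside 0.634% lower and 0.433% higher.

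The second group is the 18 guides below 2 CPM at parental T0, with a median of 11 counts there, from 0 to 34. For 8 of these, NMYC T0 was at 5 CPM or more: ABHD2, ATP6V1E2, CLDN2, CLEC7A, NUBPL, TMEM184C, USP44 and WDR5. That is 22.9% of the 35, against 15.9% of all guides, 11.5% of the parental-low set and 12.1% of the NMYC-present set. These guides were scarce in all 5 parental libraries and present in all 5 NMYC libraries. No fall of these guides from above 2 CPM was seen in parental cells, but the starting level rests on 1 T0 library. Below that limit, their fitted log2 fold changes of later minus T0 in parental cells ran from -3.33 (WDR5) to 0.95 (CLEC7A). The guide against ABHD2, a serine hydrolase, had 9 counts at parental T0, then 18 and 0 at T6 and 7 and 1 at T12, and 633 counts at NMYC T0 (41.0 CPM, interval 37.8 to 44.3), 94 and 78 at T6 and 87 and 790 at T12. The ATP6V1E2 guide, against a subunit of the proton pump that acidifies vesicles, had 9 counts at parental T0 and 4 to 33 later, and 560 at NMYC T0, 395 and 123 at T6, then 450 and 780 at T12. The guide against CLEC7A, the fungal glucan receptor of myeloid cells also called dectin-1, had 4 counts at parental T0 and 0 to 20 later, and 444 at NMYC T0 and 86 to 394 later.

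WDR5, a subunit of histone methyltransferase complexes that also binds MYC proteins, was the target of a guide with 9 counts at parental T0 (0.489 CPM, interval 0.224 to 0.929), 1 and 0 at T6 and 0 and 3 at T12. In NMYC cells it had 183 counts at T0 (11.8 CPM, 10.2 to 13.7), 102 and 100 at T6 and 130 and 243 at T12. CLDN2, a tight junction protein, had the guide with the highest later NMYC mean of the 35, 41.0 ± 30.4 CPM (SD, n = 4). It had 82 counts at NMYC T0, 329 and 799 at T6, then 223 and 674 at T12, against 12 at parental T0 and 1 to 15 later. The guide against USP44, a deubiquitinase, had 13 counts at parental T0 and 3 to 25 later, and that against NUBPL, an assembly factor of respiratory complex I, 20 counts and 1 to 23 later. For TMEM184C the counts were 11 at parental T0 and 6 to 28 later. These last 3 had 137, 95 and 150 counts at NMYC T0.

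Another 8 guides were below 2 CPM in both T0 libraries: KRT18, KRT36, LOC100129636, PGAM5, SLC39A11, TMEM14C, TRIP12 and VCPIP1. That is 22.9% of the 35, against 16.6% of all guides, 62.0% of the guides low in all later parental libraries and 2.51% of those present in all later NMYC libraries. The LOC100129636 guide had 1 count in each T0 library, 1 and 0 in parental cells at T6 and 0 and 1 at T12, but 105 and 60 counts in NMYC cells at T6 and 475 and 404 at T12. The PGAM5 guide, against a phosphatase of mitochondria, had 1 count at NMYC T0 and 14 at parental T0. It then had 134 and 100 counts in NMYC cells at T6 and 88 and 239 at T12, and 13, 0, 1 and 2 in the later parental libraries. A level of 1 count at T0 has a 95% interval of 0.00164 to 0.361 CPM in the NMYC library, so for both guides the T0 level itself is known only as low.

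The KRT18 guide, against a keratin of simple and luminal epithelia, had 21 counts in each T0 library. It had 132 and 185 counts in NMYC cells at T6 and 537 and 432 at T12, and 15, 11, 2 and 7 in the later parental libraries. KRT18 has many related pseudogene copies, so its target is uncertain here. SLC39A11, a zinc transporter, had 22 counts at NMYC T0, 227 and 81 at T6, then 377 and 1054 at T12, against 34 at parental T0 and 0 to 14 later. VCPIP1, a deubiquitinase that works with the VCP ATPase, had 12 counts at NMYC T0, 99 and 193 at T6, then 104 and 575 at T12, against 23 at parental T0 and 5 to 25 later. TRIP12, a ubiquitin ligase, had 27 counts at NMYC T0 and 75 to 430 later, and TMEM14C, a mitochondrial membrane protein of haem synthesis, 20 and 66 to 253. KRT36, a hair keratin, had 27 counts at NMYC T0 and 72 to 216 later. All 8 guides were thus scarce in the T0 library of both arms, and of the later libraries only those of NMYC cells held them at 5 CPM or more.

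The last 2 of the 18 were between 2 and 5 CPM at NMYC T0. NIPA1, a magnesium transporter, had a guide with 0 counts at parental T0, which allows up to 0.163 CPM at a limit of 3 counts and up to 0.2005 CPM by its 95% interval, and 3, 3, 15 and 23 counts later. It had 67 counts at NMYC T0, then 276, 372, 400 and 468. The guide against SCGB3A1, a secreted epithelial protein, had 4 counts at parental T0 and 2 to 19 later, and 71 at NMYC T0, 135 and 169 at T6, then 307 and 1205 at T12, the highest single count of the set. The 6 guides from 2 to below 5 CPM at parental T0 targeted CALY, EVA1C, LPCAT1, PLEKHA6, R3HCC1L and ZNF268, with 42 to 82 counts there. ZNF268, a zinc finger protein gene, had 79 counts at parental T0 and 2, 0, 5 and 7 later, and 681 at NMYC T0, 90 and 111 at T6, then 336 and 1165 at T12. The PLEKHA6 guide had 82 counts at parental T0 and 1, 1, 1 and 3 later, and 274 at NMYC T0 and 83 to 384 later. LPCAT1, an enzyme of phosphatidylcholine remodelling, had 61 counts at parental T0 and 1 to 16 later, and 136 at NMYC T0 and 120 to 390 later. The CALY guide had 49 counts at parental T0 and 10 to 27 later, and 157 at NMYC T0 and 65 to 715 later. EVA1C had 42 and 2 to 31 in parental, and 290 and 174 to 378 in NMYC cells, and R3HCC1L had 51 and 4 to 22 in parental, and 30 and 109 to 460 in NMYC cells.

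Between T6 and T12 in NMYC cells, the fitted change was positive for 26 of the 35 guides and negative for 9, against 27893 and 25036 of the 53040 guides tested. The rule set no direction for this change, but it set a minimum of 5 CPM on each of the 4 libraries compared, which most guides tested did not meet. In CPM, T12 exceeded T6 between same-numbered libraries for 22 of the 35 in each replicate (62.9%). Among the 17898 guides that met the same minimum, the shares were 51.7% and 53.4%. The median log2 fold change was 1.08, against 0.11 for all guides tested, from -1.32 (LPCAT1) to 2.98 (ZNF268). None of these changes passed: edgeR called 0 of the 35 in either direction, with 0 at an unadjusted p under 0.05, beside 0% of all guides called and 1.57% higher and 2.84% lower unadjusted. DESeq2 called 0 too, beside 0.673% of all guides lower and 0.28% higher, with 0 lower and 3 higher unadjusted, beside 6.38% and 4.92%. Without NMYC T12 replicate 2, the library in which the 35 had their highest median, the median was 0.36. ZNF268 went from 8.83 ± 3.97 CPM at T6 to 48.4 ± 32.5 at T12 (SD, n = 2), SCGB3A1 from 13.4 ± 6.14 to 48.6 ± 35.8, and SLC39A11 from 11.8 ± 4.74 to 46.6 ± 25.5. LPCAT1, at 27.9 ± 2.53 and 8.44 ± 0.93 CPM, and R3HCC1L, at 25.1 ± 7.98 and 8.24 ± 0.0370 CPM, lay the other way, with both T12 values below both T6 values.

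In parental cells the same change had a median of 0.18, against 0.06 over all guides. The parental libraries each moved it: it was 1.42 without T6 replicate 1, 0.49 without T6 replicate 2, 0.55 without T12 replicate 1 and -0.85 without T12 replicate 2. By edgeR 0 of the 35 were called, beside 0% of all guides, with 1 lower and 0 higher unadjusted, beside 4.32% and 2.12%. By DESeq2 0 were called, beside 1.94% of all guides lower and 0.627% higher, with 1 lower and 1 higher unadjusted, beside 9.08% and 5.98%. The 1 lower in edgeR was SLC39A11, with 4 and 14 counts at T6 and 0 and 1 at T12 (log2 fold change -4.78, edgeR adjusted p = 0.776). The difference of this change between the arms was called for 0 of the 35 by edgeR, beside 0.00566% of all guides lower and 0.0113% higher, with 0 lower and 1 higher unadjusted, beside 3% and 3.88%. DESeq2 called 0, beside 0.826% and 1.12%. All parental values here lay under the ceiling that the rule sets, at most 33 counts in a library.

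The other guides against the same genes are a readout that the rule did not use. The table lists 69 of them, 2 for each gene except LOC100129636, which has 1. Of the 69, 8 (11.6%) were below 2 CPM in all 4 later parental libraries, against 5.65% of all guides, and 6 (8.70%) in all 4 later NMYC libraries, against 5.34%. At 5 CPM or more in all 4 were 23 (33.3%, against 32.1%) for NMYC and 17 (24.6%, against 25.6%) for parental cells. In later NMYC minus later parental their median log2 fold change was -0.13, against -0.09 for all guides tested, and 30 of the 64 that passed the filter were positive. By edgeR 0 of 64 were called lower and 0 higher, beside 0.0358% and 0.00754% of all guides, with 2 lower and 1 higher unadjusted, beside 5.81% and 3.94%. DESeq2 called 2 lower and 1 higher, beside 2.91% and 2.04%. In this contrast edgeR also called 0 of the 35 chosen guides, so its 0 among the other guides says little about their genes. The 1 guide that DESeq2 called higher was HGLibB_03366 against ASRGL1 (DESeq2 adjusted p = 0.0107). The sign of the median is not settled: it was 0.38 without parental T6 replicate 1, 0.18 without parental T12 replicate 1, 0.15 without parental T12 replicate 2, 0.02 under the replicate block and 0.18 with T6 and T12 summed per culture. Without NMYC T12 replicate 1, NMYC T12 replicate 2 or NMYC T6 replicate 2 it was -0.28, -0.37 or -0.24.

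Of the 64, 3 had all 4 later NMYC values above all 4 later parental values (4.69%, against 2.54% of all guides) and 0 were the other way (against 1.27%). They target ASRGL1, MYO5B and VCPIP1, and the ASRGL1 guide is among them only through 1 NMYC count against 0 parental counts, below the limit of 3 counts. The ASRGL1 guide HGLibB_03366 had 0 counts in all 4 later parental libraries and 2 at parental T0, and in NMYC cells 622 at T0, 24 and 78 at T6, and then 1 and 12 at T12. Against the limit of 3 counts per parental library its later NMYC mean was at least 11.4-fold higher (edgeR adjusted p = 0.188, DESeq2 adjusted p = 0.0107). Although higher than in parental cells, it was far below its own NMYC T0 level, unlike the chosen ASRGL1 guide. The third ASRGL1 guide was at 334, 40, 195 and 173 counts in parental and 309, 234, 495 and 637 in NMYC later libraries, and these overlap in counts and in CPM.

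Both other VCPIP1 guides had higher mean levels in later NMYC libraries, 1 without overlap and 1 with. HGLibB_53513 had 189, 37, 233 and 82 counts in the later parental and 717, 388, 163 and 1223 in the later NMYC libraries, a log2 fold change of 2.18 ± 1.20 (SE; edgeR adjusted p = 0.560). These overlapped in CPM, and without NMYC T12 replicate 2 the value was 1.08. HGLibB_53511 had 49, 11, 30 and 52 counts against 447, 119, 121 and 97 (2.20, adjusted p = 0.591), and at T0 it had 1567 counts in parental and 107 in NMYC cells. Their sum had the smallest p of the member genes, 11.9 ± 6.22 CPM in later parental and 58.4 ± 27.5 in later NMYC libraries (SD, n = 4; log2 fold change 2.26 ± 0.82 SE, edgeR adjusted p = 0.579). The other MYO5B guide that passed the filter had 435, 65, 267 and 439 counts in later parental and 580, 460, 695 and 604 in later NMYC libraries (0.98, adjusted p = 0.834). None of these VCPIP1 and MYO5B differences passed the edgeR threshold.

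Other guides lay against the direction of the chosen one. A second NAT2 guide, HGLibB_31135, had 21, 171, 9 and 234 counts in later parental and 159, 3, 0 and 0 in later NMYC libraries (log2 fold change -5.68 ± 2.11 SE, edgeR adjusted p = 0.271, DESeq2 adjusted p = 0.0292). For NGLY1, HGLibB_31837 was at 349, 31, 1167 and 450 against 801, 351, 3 and 8 counts (-2.77 ± 1.22, edgeR 0.399, DESeq2 0.0312). In both guides the T12 counts in NMYC cells were between 0 and 8, so these SE, taken back from the test statistic, are rough. With T6 and T12 summed per culture the values were -1.79 for NAT2 and -0.81 for NGLY1. Other low values were those of PLEKHA6 (-3.66, edgeR adjusted p = 0.518), KRT36 (-2.37, 0.578) and SLC39A11 (-3.04, 0.584), and on the higher side came SEMA3E (2.61, 0.580) and R3HCC1L (2.46, 0.587). Without NMYC T12 replicate 2 the SEMA3E value was -0.08. The 2 other WDR5 guides were at 0.47 and 1.61 (edgeR adjusted p = 0.962 and 0.854). The first had 137, 30, 0 and 253 counts in later parental and 259, 264, 83 and 73 in later NMYC libraries, and the second 30, 5, 38 and 57 against 14, 77, 10 and 270, so that the arms overlapped for both.

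Summed per gene without the chosen guide, 18 of the 35 genes were higher and 17 lower in later NMYC than in later parental libraries, with a median log2 fold change of 0.13, against -0.03 over the 19605 genes tested. That median was 0.46 without parental T6 replicate 1, -0.25 without NMYC T12 replicate 1 and 0.00 without NMYC T6 replicate 1, and 0.26 under the replicate block. Of the 35, edgeR called 0 lower and 0 higher, beside 0% of all genes in each direction, with 1 lower (PIGB) and 1 higher (VCPIP1) unadjusted, beside 3.79% and 2.66%. DESeq2 called 0 of the 35, beside 0.434% of all genes lower and 0.337% higher, with 3 lower and 1 higher unadjusted, beside 6.29% and 4.74%. After VCPIP1 the smallest p on the higher side were those of ASRGL1 (log2 fold change 1.31), ZNF268 (1.02), MYO5B (1.05) and NAT2 (0.79), with adjusted p from 0.886 to 0.920. On the lower side were PIGB (-2.39, adjusted p = 0.743), PLEKHA6 (-1.52, 0.805), KRT36 (-1.62, 0.850), NGLY1 (-0.97, 0.886) and SCGB3A1 (-0.70, 0.940). Without parental T6 replicate 1 the sums of NGLY1 and SCGB3A1 were higher instead, at 0.27 and 0.53.

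The target genes came from many kinds of cell function. RefSeq listed 34 of the 35 symbols, all 34 as protein-coding genes, and LOC100129636 was not matched. Several take part in ubiquitin-dependent or related protein turnover (TRIP12, USP44, VCPIP1, NEURL2, NGLY1), in membrane traffic (MYO5B, RAB11FIP4), in transport of ions (SLC39A11, NIPA1, ATP6V1E2) or in mitochondria (NUBPL, PGAM5, TMEM14C). This grouping was made after the genes were known. The share of all guides in such groups was not counted, so no theme is read from it. Of 18 lists of genes compared with the set, 3 held a member each. WDR5 was the 1 of 87 guides in the MYC and MAX network list, which makes up 0.156% of all guides. KRT18 was the 1 of 92 in the prostate luminal and androgen receptor list (0.165% of all guides). TAS2R46 was the 1 of 1548 in the list of families not expressed in most tissues (2.77% of all guides). A single guide is 2.86% of the 35, so 1 member says little about any of these lists. The other 15 lists held 0 members. Of these, 6 covered core growth machinery (ribosomal proteins, proteasome subunits, splicing, general transcription, tRNA charging, and mitochondrial respiration with translation), and 3 covered replication, mitosis and DNA repair. A further 3 covered signalling, nucleotide metabolism and genes that restrain growth. The last 3 covered candidate MYC dependencies, neuroendocrine factors, and chromatin regulators (Polycomb, SWI/SNF and DNA methylation). Each of these 15 makes up 0.123% to 0.564% of all guides, so a count of 0 among 35 says little about any of them.

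The limits of the rule fall within a continuous range of values. Just inside the parental limit were ATP6V1E2, USP44 and TAS2R46 with highest values of 1.95, 1.94 and 1.86 CPM, and just outside were guides against CD163, SLC9A3 and CCDC19 at 2.02, 2.07 and 2.09 CPM. Just inside the NMYC limit were PNPLA1, KRT36 and MYO5B with lowest values of 5.00, 5.09 and 5.14 CPM, and just outside were guides against C12orf23, PPAPDC2 and FLNA at 4.93, 4.93 and 4.84 CPM. With limits of 10 and 1 CPM 2 guides met the rule, those against CLDN2 and COASY, and with limits of 3 and 3 CPM 145 did.

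The 10 guides that met the rule with the arms exchanged target ACADS, ALPPL2, C12orf40, DUSP11, HES1, NOS3, PCDHB14, SMPDL3B, TNS1 and TSGA10IP. At NMYC T0, the T0 of the arm where they were later scarce, 3 of the 10 were below 2 CPM (30.0%, against 51.4% for the 35 at parental T0) and 4 were at 5 or more. At parental T0 4 were below 2 CPM and 6 at 5 or more. The sets were compared by these values only, and no difference between them was tested.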

How the data were processed

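The authors deposited raw counts per sgRNA for 10 libraries, whole numbers with no normalization; per the submitters' processing notes MAGeCK was used. The sources used here name no version, trimming, mismatch setting or guide reference. Every column was assigned to a sample by name (0 left unmapped). The labels speak of 65000 sgRNAs and the table lists 55849. CPM was each count over its column total. Members, gene lists and tests were chosen with earlier results of these data known. Tests used edgeR 4.0.16 in R 4.3.3 (TMM, quasi-likelihood, 6 group means, mean count of at least 20). The fit left 4 residual degrees of freedom per guide, and the spread was moderated across guides. Benjamini-Hochberg adjustment was over all guides or genes at 0.05. Genes were also tested as sums without the chosen guide. Each SE was taken back from the test, as the log2 fold change over the square root of its F statistic. It is an approximation and is unreliable at counts near 0. DESeq2 1.42.0 was an alternative. The fitting code was tested on simulated data. "Later" averages T6 and T12; a fold change of a guide at 0 counts in one arm depends on the prior count. Members were named by rules on T0 level, NMYC level, lists and p; since the set is small, all 35 are named.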

Additional observations from a re-analysis of the deposited data

How the results depend on the processing

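With CPM from TMM-adjusted library sizes the rule gave 35 guides, 22 of them the same. It gave 2 with limits of 10 and 1 CPM, 145 with 3 and 3 CPM, 660 from the T6 libraries only and 1119 from the T12 libraries only; leaving out 1 later library gave 58 to 211. Of the 35, 51.4% were below 2 CPM at parental T0, and 48.6% with TMM-adjusted CPM. Of the guides chosen by limits of 10 and 1 CPM the share was 50.0% (1 of 2), and by 3 and 3 CPM 60.0% (87 of 145). With the T0 limit itself moved, 40.0% of the 35 were below 1 CPM and 68.6% below 5 CPM. At NMYC T0 the share below 2 CPM was 25.7% to 50.0% over the same choices. There, 11.4% of the 35 were below 1 CPM and 45.7% below 5 CPM. For the other guides of member genes DESeq2 called 3 where edgeR called 0 (NAT2 -5.47, NGLY1 -2.78, ASRGL1 6.57 on the log2 scale). Counts of calls stayed at 0 for these guides under the other settings run, and for the gene sums and the changes from T6 to T12 under every setting run.

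The replicate block also gave 0 calls in these 4 tests. Alternatives for later minus T0 were chosen after seeing the data. In parental cells the 4 calls became 10 with DESeq2, 5 with RLE factors, 0 under the replicate block and 0 to 4 with 1 library left out; in NMYC cells the count stayed at 0 under every setting run. Same-numbered libraries of T6 and T12 did not deviate together (r = 0.066 in parental and -0.010 in NMYC cells). These values do not settle whether the numbers pair the libraries. The sums per culture took same-numbered libraries of an arm as 1 culture, so they hold only if the numbers do.

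With 1 library left out, signs reversed for 3 single guides or gene sums, and for the medians of the other guides, the gene sums and the parental change from T6 to T12 given above. The NGLY1 gene sum ran from -2.13 to 0.27 and the SCGB3A1 gene sum from -2.07 to 0.53, both positive only without parental T6 replicate 1. The SEMA3E guide ran from -0.075 to 3.43, negative only without NMYC T12 replicate 2. The cause was not tested. The common dispersion between replicate libraries was 1.11. The Spearman correlation of the replicate pair was 0.533 for NMYC T6, 0.478 for parental T6, 0.46 for NMYC T12 and 0.396 for parental T12. Pairings of a later parental with a later NMYC library ran from 0.377 to 0.546, a range that holds every replicate pair. Replicates were therefore not consistently more alike than libraries of different arms.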
